A study of Rattus norvegicus with 48 samples.

Results

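The step from week 4 to week 8 was described in the livers of male Wistar rats that received the steatohepatitis diet CDAA. CDAA is a choline-deficient diet of free L-amino acids with 1% cholesterol, named CDDA Cholesterol 1pc in the labels. The comparison takes the 8 animals killed after 8 weeks (701 to 708) against the 8 killed after 4 weeks (301 to 308), chosen by diet and week in the column names, which makes 16 of the 48 animals sequenced. All rats were 6 weeks old on arrival. CDAA supplied 31% of its energy as fat, 11% as protein and 58% as carbohydrate, with 0.17% methionine. The control diet CSAA, which contains choline, supplied 16%, 12% and 72%, with 0.4% methionine. The diets thus differed in more than choline, but within CDAA the animals compared here differed in time on the diet and in age together, which cannot be told apart inside this diet alone. The 16 animals on CSAA at weeks 4 and 8 give the same step without the disease diet.

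Choline is needed to make phosphatidylcholine, which the liver uses to package fat for export as lipoprotein. When it is lacking, fat stays in the hepatocytes, and under prolonged feeding inflammation and activation of the collagen-forming stellate cells follow, with fibrosis as the later stage. Whole-liver RNA reports on all of these cells at once, so a larger number of cells of a type and more RNA per cell cannot be told apart.

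The deposited tables list genes by Ensembl identifier without names, so hepatocyte, immune and stellate cell markers were not checked here, and the tissue and disease state rest on the labels. Numbers of genes are given for this reason, with values for 2 identifiers that rose and 2 that fell. No function is assigned to them.

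Animal 303 stood apart from the rest of its group and is taken up before the results. Its transcriptome correlated with those of its 7 group mates at r between 0.940 and 0.957 over 12756 genes (log2 CPM, the reads of a gene scaled to the size of the library), whereas the lowest r among those 7 animals was 0.978. It was more like the control animals, with a median r of 0.971 to the 8 animals on CSAA at week 4 and of 0.972 to those at week 8, against 0.949 to its own group. In 4035 genes it lay above all 7 group mates and in 4218 below all of them, together 64.7% of the genes. Animal 306 was next in this respect with 45.9%, counted without 303, and the other week 4 animals lay between 20.6% and 31.6%. The counts and values of the step are therefore given with and without animal 303, and the label of the animal was kept.

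The place of each animal on the path from control to diseased liver was measured on samples outside the comparison. The week 12 livers were fitted alone, which gave 2651 genes higher on CDAA and 1167 lower, and each animal was placed on every gene between the median of the CSAA animals of week 12 (0%) and that of the CDAA animals of week 12 (100%). The position of an animal is its median over these genes. Animal 303 had a position of 14.3%. Its 7 group mates lay between 65.4% and 76.4% with a median of 70.6%. The 8 animals of week 8 lay between 76.9% (animal 704) and 92.5% (animal 707), with a median of 88.7%. No week 8 animal lay below a week 4 animal, although the gap between animals 306 and 704 was small. With the trend on gene length of each animal removed, the 7 animals lay between 68.2% and 81.3% and the 8 between 76.2% and 92.9%, so that the weeks overlapped.

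**Figure D1:**
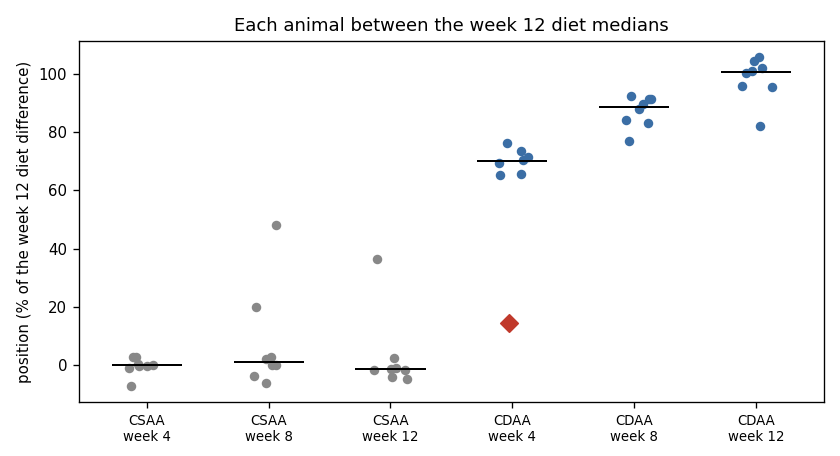
Position of each of the 48 animals between the CSAA (0%) and CDAA (100%) medians of week 12, as the median over the genes called between the diets at week 12; points are animals, bars are group medians and the red diamond is animal 303. The week 4 animals other than 303 sit between 65.4% and 76.4%, the week 8 animals between 76.9% and 92.5%, and animal 303 at 14.3%.

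Genes that were higher and genes that were lower on CDAA at week 12 gave a similar picture. Over the higher genes the 7 week 4 animals had a median position of 73.3% and the week 8 animals of 86.1%, and over the lower genes 67.7% and 92.0%. Animal 303 was at 14.5% and 14.0%. On CSAA the median position was -0.10% at week 4 and 1.16% at week 8. At week 8 the CSAA animals 504 and 502 stood at 48.2% and 19.8%, so the control step also contains animals away from their group. In the CSAA group of week 12, which sets the 0% end, animal 908 stood at 36.6%. The others of that group lay between -4.87% and 2.31%. Animal 908 was kept in the week 12 diet comparisons, and its effect on them was not tested.

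The libraries of the 2 CDAA groups differed in measures that cover the whole transcriptome. The week 4 animals had 16921693 to 22284359 reads on genes, and the week 8 animals had 14461769 to 20231354. Despite the smaller depth, more genes had at least 1 read at week 8, namely 16280 ± 178 (SD, n = 8) compared with the 15846 ± 276 (SD, n = 8) of the earlier week. The means differed by 433 genes (two-sided exact permutation test over 12870 splits, p = 0.00155, adjusted over 4 tests 0.0059). The groups overlapped, with 16148 genes in animal 306 of week 4 and 16050 in animal 702 of week 8. Without animal 303 the difference of means was 349 genes (exact permutation p = 0.00295, adjusted 0.0059). In the other direction, the most abundant gene, which was the same in all 16 animals, took 9.24% ± 1.49 (SD, n = 8) of the reads at week 4 and 7.70% ± 0.898 (SD, n = 8) at week 8 (exact permutation p = 0.0174, adjusted 0.0232). Animal 303 had the highest share with 12.4%, and without it the week 4 mean was 8.79% (exact permutation p = 0.0343, adjusted 0.0343).

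**Figure D2:**
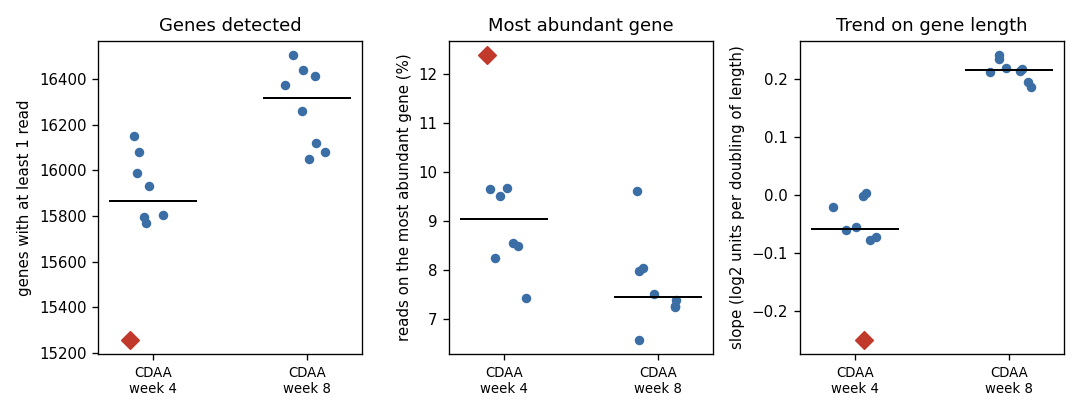
Measures of the 16 CDAA libraries by week: genes with at least 1 read, the percentage of reads on the most abundant gene, and the slope of log2 expression on gene length; points are animals, bars are medians and the red diamond is animal 303. Animal 303 has 15257 genes and 12.4% of reads on 1 gene, and the slopes of the 2 weeks do not overlap.

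One further library measure moved with the step. The deviation of each gene from its mean over all 48 animals followed gene length, and the slope of this relation, in log2 units per doubling of length, was between -0.08 and 0.003 in the 7 week 4 animals and between 0.19 and 0.24 in the 8 week 8 animals. Animal 303 had a slope of -0.25. On CSAA the slopes overlapped between weeks 4 and 8, with values of -0.25 to -0.03 after 4 weeks and of -0.26 to -0.07 after 8 weeks. At week 12 they were higher on CSAA as well, from -0.15 to 0.12, and on CDAA they were 0.19 to 0.28. In every CDAA liver of week 8, long genes thus gained and short genes lost reads relative to week 4. The part of this trend in the result was not tested, and calls are given below also with the trend of each animal on length removed.

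Against this background, 405 genes were higher and 235 were lower at week 8 than at week 4 among 12756 expressed genes (3.17% and 1.84%). A gene was called where an absolute log2 FC of 1 or more came with an adj. p value below 0.01 (edgeR quasi-likelihood test, Benjamini-Hochberg adjustment). Without animal 303 the calls were 352 higher (2.76%) and 129 lower (1.01%). The higher calls changed by less than 1.5 times and the lower calls by more. Of the higher calls 337 were made both ways, which is 83.2% of the calls with and 95.7% of those without animal 303. Of the lower calls 118 were made both ways, which is 50.2% and 91.5%.

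Most called changes were small. With all 8 week 4 animals the median log2 FC was 1.35 among the genes higher and -1.15 among the genes lower, and without animal 303 it was 1.32 and -1.12. A change of at least 2 log2 units was seen in 33 of the higher and 25 of the lower genes, and without animal 303 in 28 and 7. Below 1.5 log2 units lay 269 of the 405 and 193 of the 235, and 247 of the 352 and 111 of the 129 without this animal. Many more genes shifted by less: 4886 genes had an adj. p value below 0.01 at any size, and 4306 without animal 303. Tested against a change of 1 log2 unit instead of being filtered on it, 5 genes were higher and 1 was lower, and without animal 303 3 were higher and 0 lower (edgeR, with 241 genes at an unadjusted p below 0.05 in that test).

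The largest shifts caused by leaving out animal 303 had 1 direction. In that fit the log2 FC moved by at least 0.5 in 62 genes, and in all 62 it moved upward, by 1 or more in 24. The 117 genes called lower only with animal 303 had a median log2 FC of -1.08 with it and of -0.91 without it, and in 108 of them animal 303 had a higher value than all 7 group mates. In 103 of the 117 the change fell short of 1 log2 unit without the animal, and in 31 the adj. p value was 0.01 or more. The 68 genes called higher only with it went from a median of 1.07 to 0.98, and in 49 of them animal 303 lay below all group mates. In the opposite sense, 15 higher and 11 lower genes were called only without it.

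**Figure D3:**
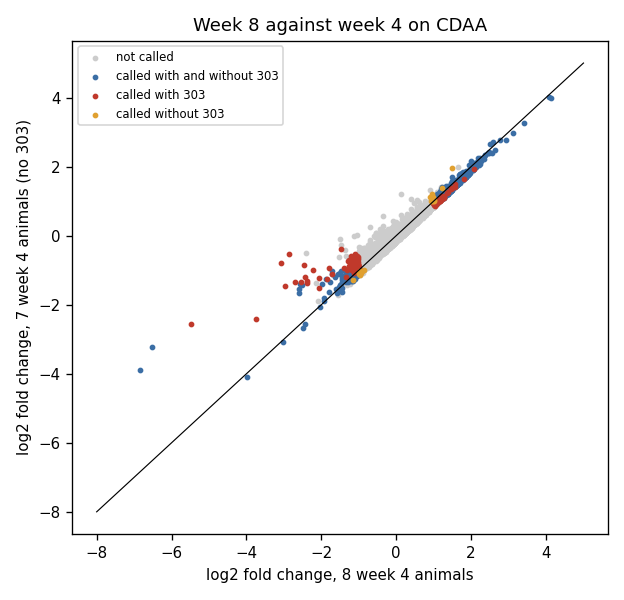
Log2 fold change of week 8 against week 4 on CDAA for 12756 genes, with all 8 week 4 animals (horizontal) and with the 7 other than animal 303 (vertical); each point is a gene, coloured by whether it was called, and the line marks equal values. The points far from the line lie above it on the left side, where 117 genes were called lower only with animal 303.

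Groups that did not overlap at all were also counted, whatever the size of the change, and here lower values at week 8 were the more frequent. The 8 week 8 livers lay entirely above the 8 week 4 livers in 901 genes (7.06% of the genes) and entirely below in 1571 (12.3%). Without animal 303 these were 973 (7.63%) and 1701 (13.3%). Leaving out an animal cannot lower these numbers, so their increase is not a result. Called genes were more often free of overlap, with 202 of the 405 higher (49.9%) and 119 of the 235 lower (50.6%). Without animal 303 these were 199 of 352 (56.5%) and 67 of 129 (51.9%). The same values chose the calls. With the length trend removed the non-overlapping genes were fewer, 471 higher and 920 lower with animal 303, and 581 and 996 without it.

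The spread within the groups was alike once animal 303 was set aside. The median SD of a gene on the log2 CPM scale was 0.19 among the 7 week 4 animals and 0.18 among the 8 of week 8, and it was 0.26 with animal 303. Pairs of animals within week 8 had a median r of 0.982, pairs of the 7 week 4 animals 0.985, and the 56 pairs across the weeks 0.966. Each of the 7 and each of the 8 had its most similar CDAA animal of these 15 in its own week. As a check for a library deposited more than once, the counts were compared gene by gene. The lowest mean chi-square per gene was 14.98 over the 576 pairs of a CDAA animal of week 4 or 8 with an animal of another group, and 11.9 over the 56 pairs within these 2 groups, so that all of these pairs differed by more than counting error.

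The directions of the calls were counted by level of expression, as the mean over the 16 animals. Genes below 1 CPM are not read for direction, since such a gene was tested only if a group stood higher, and the same filter can favour rises among other genes of low level. These 777 genes held 133 of the 405 higher and 25 of the 235 lower calls. Without animal 303 they held 112 of the 352 higher and 13 of the 129 lower calls. Between 1 and 10 CPM 4.47% of 4537 genes were called higher and 1.70% lower, and between 10 and 100 CPM 1.06% and 1.37% of 6330 genes. Among the 1112 most abundant genes, with 100 CPM or more, 2 genes were higher (0.18%) and 46 were lower (4.14%). Without animal 303 the classes from 1 CPM upward gave 3.88%, 0.979% and 0.18% higher, and 1.17%, 0.821% and 0.989% lower. The falls among the most abundant genes thus went from 46 to 11 when this animal was left out.

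Gene length, derived by dividing scaled counts by RPKM (reads scaled to gene length and library size), separated the directions more sharply. Genes called higher had a median length of 3423 bases and genes called lower of 752 bases, against 2251 bases over all tested genes. Without animal 303 the medians were 3373 and 768 bases. In the shortest quartile of genes, from 110 to 1492 bases, 41 were higher and 193 lower (1.29% and 6.07%). In the longest quartile, from 3432 to 23753 bases, 201 were higher and 5 lower (6.31% and 0.157%). Leaving out animal 303 changed these to 37 and 109 in the shortest and to 170 and 1 in the longest quartile. Across 12736 genes the log2 FC correlated with log2 length at r = 0.51 with and 0.50 without animal 303, and the CSAA step at -0.01, which are descriptions over genes of the same libraries.

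**Figure D4:**
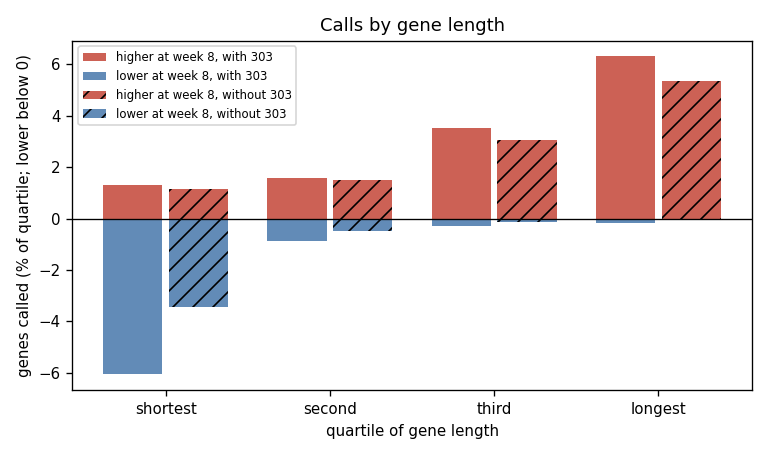
Percentage of the genes of each length quartile called higher (above 0) or lower (below 0) at week 8 than at week 4 on CDAA; plain bars use all 16 animals and hatched bars leave out animal 303. Calls of lower expression sit in the shortest genes (6.07% with and 3.43% without 303) and calls of higher expression in the longest (6.31% and 5.34%).

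With the trend of each animal on length removed, 334 genes were higher and 80 lower, and without animal 303 as well 293 and 34. Of the original calls, 260 of the 405 higher genes (64.2%) and 62 of the 235 lower genes (26.4%) passed again. Without animal 303 these were 228 of 352 (64.8%) and 21 of 129 (16.3%). No called gene turned its sign. The median lengths of the higher and lower genes were then 2256 and 1869 bases, and 2207 and 2594 bases without animal 303, which turns their order. The scaling between libraries also moved the split: with scaling to library size alone, the median log2 FC over all genes was 0.22 instead of -0.04, and 806 genes were higher and 61 lower. The RPKM table, which carries no correction for library composition, gave 658 and 52 on the log2(RPKM + 0.1) scale.

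The same 4 weeks on CSAA gave few changes. Between weeks 4 and 8, 6 genes were called on CSAA (0.047%), 4 higher and 2 lower, with 2454 genes at an unadjusted p below 0.05 by edgeR. DESeq2 called 60. In the fit without animal 303, with the same CSAA animals, 19 were called. Of the 405 genes higher on CDAA none was among the 6, and of the 235 lower genes 1 was. The genes higher on CDAA had a median log2 FC of 0.36 on CSAA, and 330 of them (81.5%) had a positive value there. Those lower on CDAA had a median of 0.04 on CSAA, and 109 (46.4%) had a negative value. Without animal 303 the positive values were 280 of 352 (79.5%) and the negative ones 64 of 129 (49.6%). The median CSAA step over all tested genes was 0.002, so positive and negative values were about equally frequent among them. The exact share was not counted. The CSAA week 8 animals 504 and 502 had positions of 48.2% and 19.8% on the path from control to diseased liver. Their part in the positive CSAA values was not tested. Over all genes the 2 steps, which share no animal, correlated at r = 0.20 with animal 303 and at 0.17 without it.

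Whether the step differed between the diets was tested as the diet by week interaction. In this test 155 genes had a more positive step on CDAA than on CSAA (1.22%) and 387 a more negative one (3.03%). Without animal 303 the numbers were 144 (1.13%) and 277 (2.17%). Among the genes called higher on CDAA, 102 of 405 (25.2%) also passed the interaction in the same direction, and among those called lower 150 of 235 (63.8%). Without animal 303 these were 97 of 352 (27.6%) and 72 of 129 (55.8%). The interaction contains the CDAA step itself, so these shares and the medians that follow are partly set by the choice of genes. The 155 genes had a median log2 FC of 1.14 on CDAA and of -0.10 on CSAA, and the 387 genes of -0.94 and 0.29. Leaving out the CSAA animal 504 gave 264 and 377, leaving it out together with 303 gave 233 and 253, and with the length trend removed the numbers were 151 and 96. The excess of negative interactions was therefore not seen with the length trend removed. It was also not seen with library size alone (323 positive and 155 negative) or on log2(RPKM + 0.1) (383 and 138). It was seen with limma-voom (164 and 333) and DESeq2 (204 and 383), so its direction varied with the scaling.

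The called genes were set beside the diet difference at week 12, which comes from 16 other animals and had 2476 genes higher (19.4%) and 1441 lower (11.3%) on CDAA. Of the 405 genes that rose from week 4 to week 8, 295 (72.8%) were higher on CDAA at week 12, 4 (0.988%) were lower and 106 (26.2%) were not called. The filter can favour this share, since a gene below 1 CPM in most groups was tested only through a group where it stood higher. Of the 405, 133 had a mean below 1 CPM over the 16 animals compared, and their part in the share was not tested. Of the 235 genes that fell, 125 (53.2%) were lower at week 12, 7 (2.98%) were higher and 103 (43.8%) were not called. The 295 genes make up 11.9% of the genes higher at week 12, and the 125 genes 8.67% of those lower. Without animal 303, 238 of 352 rising genes (67.6%) were higher at week 12, and 43 of 129 falling genes (33.3%) were lower. Across all genes the step correlated with the week 12 diet difference at r = 0.57, and at 0.46 without animal 303. With the length trend removed from both, r was 0.58 and 0.44.

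Levels in the 6 groups show the course of these sets, on the median log2 CPM scale and with animal 303 left out. The 238 rising genes that were higher on CDAA at week 12 stood at 0.10, 1.41 and 1.92 on CDAA at weeks 4, 8 and 12, and at -1.19, -0.79 and -0.60 on CSAA. They were thus already above the control level at week 4. The 109 rising genes not called at week 12 stood at 0.71, 1.81 and 1.81 on CDAA and at 1.08, 1.27 and 1.71 on CSAA, so that CDAA was below CSAA at week 4 and above it at week 8. The 43 falling genes that were lower at week 12 stood at 4.38, 3.29 and 3.32 on CDAA and at 5.75, 5.75 and 5.03 on CSAA. The 74 falling genes not called at week 12 stood at 3.58, 2.39 and 2.91 on CDAA and at 3.55, 3.53 and 2.93 on CSAA. A smaller set of 12 falling genes was higher on CDAA at week 12 and went from 2.07 at week 4 to 0.25 at week 8 and 0.83 at week 12, with -1.003, -0.58 and -1.25 on CSAA. These sets were chosen by the week 4 to week 8 step and the week 12 difference, so the order of the levels used for that choice is a description.

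The gene ENSRNOG00000058904 had the largest rise among genes with a mean of at least 5 CPM that were called with and without animal 303. The week 4 animals had 0.957 to 3.57 CPM with a median of 1.68, and the week 8 animals 4.84 to 16.8 CPM with a median of 11.0. Animal 303, at 3.38 CPM, was within the range of its group, and the 2 weeks did not overlap. The log2 FC was 2.49 with an SE of 0.37 (edgeR adj. p value 3.19e-07) and 2.65 without animal 303. On CSAA the median was 1.76 CPM at week 4 and 3.93 CPM at week 8, a log2 FC of 0.49 (edgeR adj. p value 0.504), and the step differed between the diets by 2.00 log2 units (edgeR adj. p value 0.00277). At week 12 the medians were 13.6 CPM on CDAA and 4.81 CPM on CSAA.

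A second riser, ENSRNOG00000027742, was more abundant. At week 4 it ranged from 8.81 to 47.0 CPM with a median of 33.3, and at week 8 from 92.1 to 201 CPM with a median of 125. Animal 303 was the lowest at 8.81 CPM, while its 7 group mates lay between 27.3 and 47.0 CPM. The weeks did not overlap in either case. The log2 FC was 2.07 with an SE of 0.40 (edgeR adj. p value 3.63e-05) and 1.93 without animal 303. On CSAA the gene stood at a median of 5.88 CPM at week 4 and 9.45 CPM at week 8, with a log2 FC of 1.43 (edgeR adj. p value 0.0586). This value rests on animal 504, which had 64.3 CPM, and without it the CSAA step was 0.63 (edgeR adj. p value 0.392). The difference between the diets was 0.64 log2 units (edgeR adj. p value 0.426), and 1.49 (edgeR adj. p value 0.0163) without animal 504. It passed the threshold in neither fit. At week 12 the median on CDAA was 212 CPM.

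The largest fall, of ENSRNOG00000008050, depended on animal 303 for its size and for its place among the named genes. Without animal 303 the gene had a mean of 3.30 CPM at week 4 and of 0.220 CPM at week 8. It would then have missed the required mean of 5 CPM. Animal 303 had 175 CPM at week 4, while its 7 group mates had between 0.187 and 14.6 CPM with a median of 0.552. At week 8 the gene lay between 0 and 0.407 CPM with a median of 0.238, from at most 8 reads in an animal, so that the weeks overlapped. The log2 FC was -6.83 with an SE of 1.03 (edgeR adj. p value 4.4e-07), and without animal 303 it was -3.89 with an SE of 0.72 (edgeR adj. p value 1.97e-05). Animal 308 was the highest of the 7 at 14.6 CPM, and without it as well the log2 FC was -2.63 (edgeR adj. p value 0.00104). Over all fits that left out 1 animal, or 303 and 1 other, it ranged from -7.03 to -2.63. By limma-voom it was not called with animal 303 (adj. p value 0.0381) or without it (adj. p value 0.0357). On CSAA the gene was abundant, with medians of 338 CPM at week 4, 280 CPM at week 8 and 408 CPM at week 12, and on CDAA at week 12 its median was 0.198 CPM. It was therefore far below the control level at week 4 in all CDAA animals but 303. The 175 CPM of animal 303 lay below the CSAA range of 233 to 408 CPM at week 4. It lay inside the CSAA range of 135 to 601 CPM at week 8.

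The second fall was in ENSRNOG00000052246, a gene of 261 bases by the ratio of counts to RPKM. It ranged from 45.0 to 259 CPM at week 4 with a median of 71.7, and from 0 to 45.9 CPM at week 8 with a median of 7.17. Animal 303 was unremarkable at 76.7 CPM. Animals 707 and 708 had 0 reads, and animal 701 at 45.9 CPM overlapped with animal 305 of week 4 at 45.0 CPM. The log2 FC was -3.03 with an SE of 0.79 (edgeR adj. p value 0.00133) and -3.08 without animal 303. With the length trend removed it was -2.43 (edgeR adj. p value 0.00954), and with animal 303 left out as well it was -2.51 and not called (edgeR adj. p value 0.0101). The limma-voom value was larger, at -5.16, and was not called either (adj. p value 0.0229). On CDAA at week 12 the median was higher again at 42.0 CPM, with a range of 16.7 to 92.9 CPM. Animals with 0 reads were also present in each CSAA group, and the CSAA medians were 130 CPM at week 4, 58.9 CPM at week 8 and 16.97 CPM at week 12. The step did not pass the test of a difference between the diets, with an interaction of -1.62 (edgeR adj. p value 0.239).

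**Figure D5:**
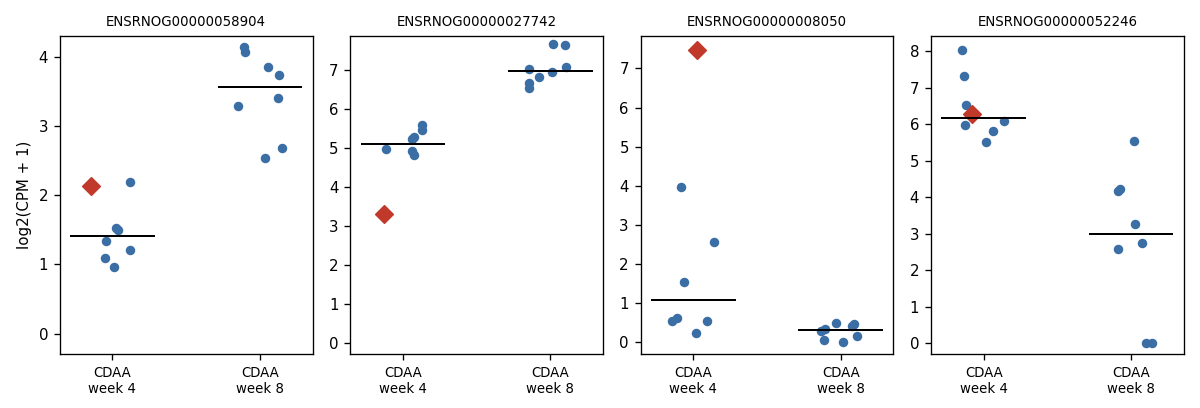
Expression of 4 genes in the 16 CDAA animals on the log2(CPM + 1) scale by week; points are animals, bars are medians and the red diamond is animal 303. The first 2 genes do not overlap between the weeks, the third is at 175 CPM in animal 303 alone, and the fourth is at 0 in 2 week 8 animals.

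Genes absent in 1 week and present in every animal of the other were rare among the 32662 genes listed. There were 2 genes with 0 reads in all 8 week 4 animals and at least 1 read in all 8 week 8 animals, and 2 genes of the opposite kind. Counts of 0 limit the number of reads at this depth and do not show that a gene is silent.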

How the data were processed

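Liver RNA of 48 rats was sequenced as polyA-selected, stranded single-end libraries. The authors aligned and counted the reads per Ensembl gene on Rnor_6.0 and deposited raw counts. They also deposited RPKM values, which were used for gene length and as an alternative. Reads on genes ranged from 13619274 to 22284359 per animal, and intervals between animals, not counting error, limit the precision for most genes. Groups came from the labels. A gene was tested (12756 of 32662) where 5 or more animals of any group reached 1 CPM.

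The quasi-likelihood test of edgeR 4.0.16 (R 4.3.3) was run on the counts with TMM factors, in a fit of all 48 animals with a coefficient for each group. The SE is the absolute log2 FC divided by the root of F. limma 3.58.1 and DESeq2 1.42.0 were alternatives. Length trends were removed per animal by a spline of 5 degrees of freedom over 12736 genes. Single measures were compared by exact permutation in Python 3.11.15. On simulated counts of 12756 genes for the CDAA step, edgeR recovered 97 of 100 genes changed by 2 log2 units with 0 false calls. With a simulated length trend it made 30 false calls, and 0 after removal. The simulation changed 200 genes, and recovery is given only for the 100 changed by 2 log2 units. Most genes called in the real data changed by less, and recovery of such changes is not shown here. The trend removed was one put in by the simulation, so this result does not show how well removal works on the real libraries.

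The groups compared, the lists and the alternatives were chosen with earlier results of these data known. The gene lists, cell type markers, promoter motifs and sequences that were planned were not analysed here, because no table used here pairs these identifiers with names. The rule for named genes took the largest changes among genes called with and without animal 303 with a mean of at least 5 CPM. This mean was taken over the 16 CDAA animals of weeks 4 and 8, with animal 303 included. The rule was planned for 10 genes with a name in each direction. It was applied to 2 identifiers in each, of 94 eligible that rose and 68 that fell. Labels name no batch and do not give the sequencing pools, so none was modelled. Animals are numbered individually, and those of different groups are unrelated by number.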

Additional observations from a re-analysis of the deposited data

Results flagged for a closer look

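Within each CDAA group of 8, values far from all others were looked for in 22 sets, 7 library measures and 4 genes in each of 2 groups, where chance gives about 1.1. The genes were taken on the log2 CPM scale. There were 7, all of them animal 303 at week 4. Its values were 15257 genes detected, 12.4% of reads on the most abundant gene, a TMM factor of 0.827, a mean r to its group of 0.950, a slope on gene length of -0.25 log2 units per doubling, a position of 14.3% between the week 12 diets, and 8.81 CPM of ENSRNOG00000027742. On the CPM scale the genes set apart would instead be ENSRNOG00000008050 in animal 303 (175 CPM) and ENSRNOG00000052246 in animal 701 (45.9 CPM), and not ENSRNOG00000027742. The library measures describe the same library and are not independent.

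The step on CDAA differed from that on CSAA in 542 genes by the test of the difference. Among the named genes this held for ENSRNOG00000058904, with a difference of 2.00 log2 units, and for ENSRNOG00000008050, with -6.76 (edgeR adj. p value 3.6e-05), which became -3.81 (edgeR adj. p value 0.00046) without animal 303.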

How the results depend on the processing

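The step on CDAA (640 genes, 405 higher and 235 lower) kept its total within 1.5 times under limma-voom, DESeq2, RLE factors, robust dispersions, quality weights, no filter on low counts and the fits of 16 or 32 animals. A stricter filter, which tests 10316 genes, gave 388 (229 higher). Library size alone gave 806 higher and 61 lower, and the interaction was then 323 and 155. A test against a log2 FC of 1 gave 6 (5 and 1), and 0 for the interaction and for CSAA, where 323 and 131 genes had an unadjusted p below 0.05 in that test. Without 303 it gave 3 (3 and 0), and 0 and 0, with 257 and 134. With the length trend removed there were 414 (80 lower), and 247 interactions (96 negative). Removing it together with animal 303 gave 327 (34 lower) and 221 interactions (76 negative). On log2(RPKM + 0.1) there were 658 higher and 52 lower, with interactions of 383 and 138. On log2(RPKM + 1) there were 195 (164 and 31), with 215 interactions (97 and 118). Leaving out animal 504 gave 264 positive interactions. Leaving out animals 303 and 504 gave 98 lower and interactions of 233 and 253, and limma-voom without 303 gave 137 lower. The cause of these shifts was not tested.

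The 6 genes of the CSAA step became 60 by DESeq2, 13 by library size alone, 10 in the 32 animals, 10 without 303 and 504, 10 with quality weights, 19 with the length trend removed and 29 without 303 as well, 14 on log2(RPKM + 0.1) and 19 without animal 303 alone.

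Leaving out 1 CDAA animal, or 303 with 1 other, gave 424 to 700 genes for the step, 311 to 442 higher and 94 to 278 lower. The 15 fits that kept 303 and left out 1 other gave 576 to 700. With only 1 CDAA animal left out, interactions ranged from 421 to 581, 143 to 171 positive and 277 to 416 negative. In the same 16 settings the difference in genes detected ranged from 349 to 477, and that of the most abundant gene from -1.81 to -1.09 percentage points. Neither was taken with 303 and another animal left out. No named gene changed direction in any setting. No paired analysis was possible because the groups share no replicate numbers. Alternatives for the gene lists were not run. Removal of the length trend together with 303, limma-voom without 303, the test against a log2 FC of 1 without 303, the fit without 504, the fits without 303 and another animal, and the position between the week 12 diets with and without the length trend were chosen after seeing the data.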
